A study of Homo sapiens with 14 samples.

Results

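The genes described here are 57 members of the deposited table of 19410 genes, all of them placed by the annotation on the short arm of chromosome 7, between positions 1855429 and 33916792 of GRCh37. They were chosen from measured values, as genes of chromosome 7 up to 40 Mb in a region where SAP30-KO and SIN3A/3B-DKO lines were shifted up and MLL1-KO lines down against parental cells. The differences between each line and parental cells are therefore what chose the members and are given as a description, with no test. Of the 57 members, 56 had a level of at least 1 TPM, a share of all transcripts corrected for their length, in at least 2 libraries. They entered the fit with all other genes that passed the same filter, 13540 in all. The exception was MACC1, a regulator of MET signalling, which had between 0 and 3 recovered reads in every library.

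RNA-Seq was performed on MDA-MB-231, an established triple-negative breast cancer (TNBC) cell line, in 14 libraries of 7 groups with 2 replicates each. The groups were parental cells, SAP30-KO1 and SAP30-KO2, in which the SIN3 complex subunit gene SAP30 was targeted with CRISPR/Cas9, SIN3A/3B-DKO1 and SIN3A/3B-DKO2, in which the scaffold genes SIN3A and SIN3B were both targeted, and MLL1-KO1 and MLL1-KO2, in which the histone methyltransferase gene MLL1 (KMT2A, listed as MLL) was targeted. The 2 parental libraries served as the control of all 6 lines. The knockout lines were mixtures of several expanded single cells and not single clones, and nothing in the labels says that the 2 replicates of a line were separate cultures, so the spread between them may be technical. Libraries held 18415036 to 23162682 reads, recovered from the steps of the values. SAP30 was 78.9 and 82.8 TPM in parental cells and 2.75 to 4.96 TPM in the 4 SAP30-KO libraries. MLL was 56.7 and 49.0 TPM in parental cells and 15.8 to 27.7 TPM in the 4 MLL1-KO libraries. It was also below both parental libraries in the 4 SAP30-KO libraries, at 23.0 to 35.4 TPM, a log2 difference of -0.95 for SAP30-KO1 and -0.65 for SAP30-KO2, against -1.64 and -0.97 in the MLL1-KO lines. In the libraries labelled SIN3A/3B-DKO, SIN3B was lower (43.5 to 50.2 TPM, against 75.1 and 77.4 in parental cells). SIN3A was higher there (55.1 to 62.5 TPM, against 43.1 and 45.4 in parental cells), so the RNA of only 1 of the 2 targeted genes was reduced. Protein was not measured in these libraries, and the RNA level does not show whether it was lost. The paper states that the proteins of both genes were knocked out and that its knockout cells were verified by immunoblot. SIN3A/3B-DKO is used below as the name those libraries were given. Of the line's own markers, VIM was 5741 to 8805 TPM, AXL 711 to 1003 TPM, and CD44 267 to 611 TPM. ESR1, PGR, and the T-cell gene CD3E were each below 0.2 TPM in all libraries. CDH1 was 1.07 and 1.25 TPM in parental cells and 0 to 0.28 TPM in the knockout libraries. ERBB2 was 42.8 and 41.5 TPM in parental cells and 21.9 to 29.0 TPM in the knockout libraries. The endothelial gene PECAM1 was 1.55 to 3.97 TPM and CDH5 at most 0.03 TPM. The leukocyte gene PTPRC was 0.02 to 0.60 TPM. The 2 libraries of SIN3A/3B-DKO2 stood farther apart than those of any other group, with recovered reads that gave a chi-square of 8.08 for each degree of freedom, against 1.48 to 3.80 in the other groups.

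The SIN3 complex is a corepressor that brings histone deacetylases to promoters, with SIN3A or SIN3B as its scaffold and SAP30 as one of its small subunits. MLL1 writes methylation on lysine 4 of histone H3 at active promoters. The members share a chromosome arm but come from many pathways: they include the actin gene ACTB and the GTPase gene RAC1, a heterochromatin protein (CBX3), translation factors, a tRNA synthetase (GARS), sorting nexins of the endosome, ubiquitin ligase adaptors, mitochondrial genes, and glycosyltransferases. Their common movement is described first, then the members by role, and then those that departed from it.

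Promoter sequences are shown for 5 members on which the description below turns, the one with the largest mean change along the shift in the SIN3A/3B-DKO lines (NUPL2), a divergent pair whose 2 genes differed in how far they moved (CBX3 and HNRNPA2B1), and both members that were lower than parental cells in all 6 lines by the widest margin (TSPAN13 and LFNG). Each is the 250 bases before the start of the gene in RefSeq, GRCh38.p14, read 5′ to 3′ on the strand of the gene. NUPL2, current symbol NUP42, lies on the plus strand with its window at chr7:23181798-23182047. CBX3 is on the plus strand at chr7:26201193-26201442 and HNRNPA2B1 on the minus strand at chr7:26200747-26200996, and their starts lie 697 bases apart. TSPAN13 is on the plus strand at chr7:16753505-16753754 and LFNG on the plus strand at chr7:2512279-2512528. Capitals mark matches on either strand to the GC box GGGCGG, the CCAAT box CCAAT, or the ETS motif CCGGAAG.
NUPL2: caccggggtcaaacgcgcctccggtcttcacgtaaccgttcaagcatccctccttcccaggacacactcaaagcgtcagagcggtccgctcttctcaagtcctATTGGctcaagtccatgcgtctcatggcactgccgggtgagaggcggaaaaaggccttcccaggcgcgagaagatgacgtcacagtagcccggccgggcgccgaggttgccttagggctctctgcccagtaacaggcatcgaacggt
CBX3: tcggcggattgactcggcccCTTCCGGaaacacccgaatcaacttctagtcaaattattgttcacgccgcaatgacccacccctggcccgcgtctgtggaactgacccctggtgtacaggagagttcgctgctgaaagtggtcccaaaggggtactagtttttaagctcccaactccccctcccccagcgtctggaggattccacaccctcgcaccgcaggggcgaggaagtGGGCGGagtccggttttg
HNRNPA2B1: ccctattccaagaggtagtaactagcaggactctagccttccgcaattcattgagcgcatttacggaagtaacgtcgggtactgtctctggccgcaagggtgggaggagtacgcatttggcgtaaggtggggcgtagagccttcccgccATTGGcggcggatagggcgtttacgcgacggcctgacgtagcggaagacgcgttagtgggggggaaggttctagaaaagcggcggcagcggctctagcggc
TSPAN13: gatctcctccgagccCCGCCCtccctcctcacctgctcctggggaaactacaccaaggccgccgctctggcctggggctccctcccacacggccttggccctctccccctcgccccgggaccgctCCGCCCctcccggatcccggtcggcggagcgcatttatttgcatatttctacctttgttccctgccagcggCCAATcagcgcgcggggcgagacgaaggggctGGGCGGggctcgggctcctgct
LFNG: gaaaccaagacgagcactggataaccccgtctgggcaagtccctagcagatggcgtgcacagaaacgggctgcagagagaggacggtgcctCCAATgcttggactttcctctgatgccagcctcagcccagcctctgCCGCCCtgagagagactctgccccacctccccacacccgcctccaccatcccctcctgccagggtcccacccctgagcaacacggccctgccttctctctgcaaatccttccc

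The TSPAN13 window held 3 GC boxes and 1 CCAAT box. LFNG held 1 of each, and CBX3 held 1 GC box and 1 ETS motif. Of the 57 members, 45 matched a RefSeq promoter. The GC box was found in 24 of the 45, or 53.3%, against 42.3% of 27305 promoters of the same length, and the CCAAT box in 15, or 33.3%, against 33.0%. The letters TATAAA were found in 3 members (6.7%, against 11.1%), the palindromic NRF1 motif in 2 (4.4%, against 1.1%), CCGGAAG in 5 (11.1%, against 8.8%), the E-box CACGTG in 6 (13.3%, against 6.5%), and the AP-1 motif TGANTCA in 2 (4.4%, against 6.6%). GC content of the windows had a median of 62.4% in the members and 58.0% over all promoters.

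The members were shifted together in every library of a genotype. The median difference of the 56 members from the parental mean, on the scale log2(TPM + 0.5) used for all differences below, was 0.43 in both SAP30-KO1 libraries and 0.40 and 0.39 in those of SAP30-KO2. The corresponding medians were 0.34 and 0.36 for SIN3A/3B-DKO1 and 0.38 and 0.44 for SIN3A/3B-DKO2. In MLL1-KO1 they were -0.30 and -0.34, and in MLL1-KO2 -0.26 and -0.25. The parental libraries stood at 0.02 and -0.02, so no library of a knockout line overlapped them, and the 8 SAP30-KO and SIN3A/3B-DKO medians lay within 0.10 of each other. The standard deviation between the medians of 2 replicates was 0.02, pooled over the 7 groups. The median standard deviation of a single member between replicates was 0.07, close to that of all genes tested, 0.08. The median of all 13540 genes lay between 0 and 0.04 in the 8 libraries of SAP30-KO and SIN3A/3B-DKO and between -0.10 and -0.04 in the 4 MLL1-KO libraries.

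**Figure D1:**
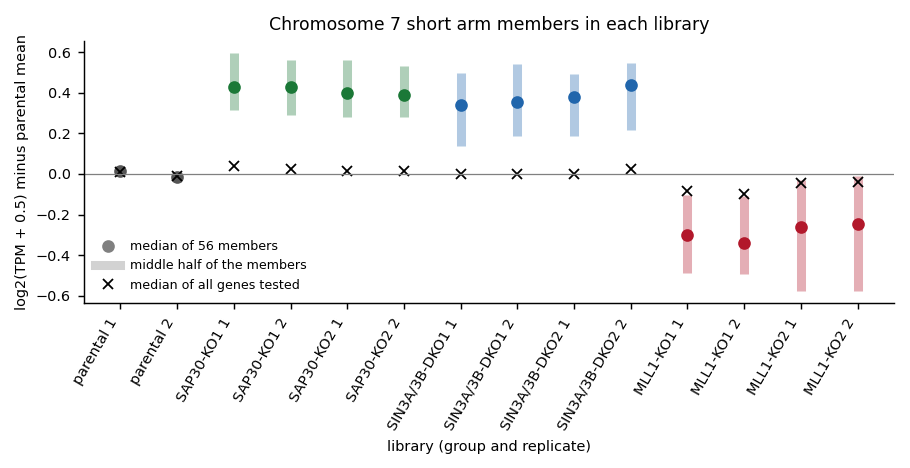
Each library (x axis) is shown with the median difference of the 56 members from the parental mean in log2(TPM + 0.5) (dot, y axis), the range between their quartiles (bar), and the median of all 13540 genes tested (cross). The SAP30-KO and SIN3A/3B-DKO medians lie between 0.34 and 0.44, and the MLL1-KO medians between -0.34 and -0.25.

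Group by group, the median change of the members was 0.44 for SAP30-KO1, a factor of 1.35, 0.39 in SAP30-KO2 (1.31), 0.35 in SIN3A/3B-DKO1 (1.27), and 0.42 in SIN3A/3B-DKO2 (1.34). For the MLL1-KO lines it was -0.33 (0.798) and -0.26 (0.835). Members were above parental cells in 51, 52, 50, and 48 of 56 cases in the first 4 lines, where 54.3%, 52.3%, 50%, and 51.6% of all genes tested were. In MLL1-KO1 and MLL1-KO2, 7 and 12 members were above, against 40.4% and 45.7% of all genes. The medians were thus smaller than 1.5-fold. By size alone and with no test, 14 members were at least 1.5-fold higher in SAP30-KO1 (8.99% of all genes tested), 9 in SAP30-KO2 (8.72%), 7 in SIN3A/3B-DKO1 (8.97%), and 10 in SIN3A/3B-DKO2 (7.12%). Against the shift, TSPAN13 was at least 1.5-fold lower in SAP30-KO1 (1 member, 8.81% of all genes) and SAP30-KO2 (1, 8.96%), LFNG and TSPAN13 in SIN3A/3B-DKO1 (2, 9.48%), and these with RAPGEF5 in SIN3A/3B-DKO2 (3, 8.58%). In MLL1-KO1, 9 members were at least 1.5-fold lower (17.2% of all genes) and 0 higher (8.01%). The corresponding counts for MLL1-KO2 were 14 (15.9%) and 1 (11.4%), TTYH3. The count of higher members in SIN3A/3B-DKO1 was 5 without parental replicate 2 and 11 without parental replicate 1. Since these contrasts chose the members, the counts describe the choice.

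Member by member, all 8 SAP30-KO and SIN3A/3B-DKO libraries lay above both parental libraries for 44 of 56 members, a separation that 21.6% of all genes showed. All 4 MLL1-KO libraries lay below both parental libraries for 35 members, against 37.7% of all genes. Both separations held at once for 24 members, against 3.6% of all genes, and these 24 include RAC1, CBX3, KDELR2, TMEM106B, SNX10, SNX13, OSBPL3, AHR, LSM5, AVL9, KBTBD2, and BBS9. By the sign of the mean change, 33 members followed the pattern in all 6 lines, against 8.09% of all genes, and the other 23 departed from it in at least 1 line. The members were picked for this pattern, so these shares describe the choice. Because the libraries were made from bulk cultures, fewer cells of one kind and less RNA per cell cannot be told apart.

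The size of the downward shift in the MLL1-KO lines depended on the scale. Quantile normalization moved the median of all genes in MLL1-KO1 from -0.09 to 0.04. With the median of all genes subtracted from each library, an alternative added after the values were seen, the median of the members was -0.16 for MLL1-KO1 and -0.19 for MLL1-KO2, and 9 members instead of 4 were above parental cells in both lines.

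**Figure D2:**
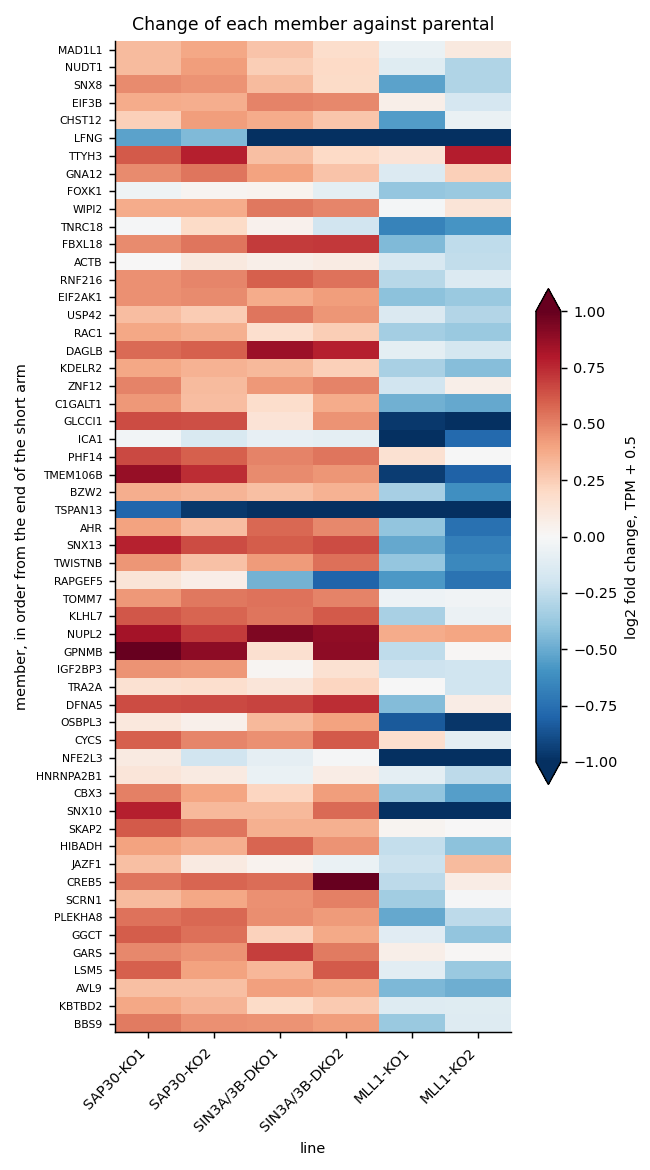
The colour gives the log2 fold change of each of the 56 members (rows, in order from the end of the short arm) in each of the 6 lines (columns) against parental cells, cut off at -1 and 1. Most rows are red in the first 4 columns and blue in the last 2, and TSPAN13 and LFNG are blue in all 6. ICA1 was also below 0 in all 6, but only at -0.16 to -0.03 in the first 4.

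Among the 14 members of membrane traffic, autophagy, and lipid signalling, 13 were above parental cells in every SAP30-KO and SIN3A/3B-DKO line, with medians of 0.50, 0.42, 0.43, and 0.42. In MLL1-KO1 and MLL1-KO2 the medians were -0.48 and -0.36. The 2 most abundant were KDELR2, a receptor that returns proteins to the endoplasmic reticulum, and SCRN1, secernin 1. KDELR2 was 235 and 222 TPM in parental cells, 267 to 304 TPM in the 8 libraries of SAP30-KO and SIN3A/3B-DKO, and 169 to 183 TPM in the 4 MLL1-KO libraries, with no overlap. SCRN1 was 162 and 160 TPM in parental cells and 198 to 234 TPM in the 8 libraries. In MLL1-KO1 it was 127 and 125 TPM and in MLL1-KO2 161 and 159 TPM, so that MLL1-KO2 lay at the parental level.

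TMEM106B, a lysosomal membrane protein, was among the 3 members with the largest mean change in SAP30-KO along the shift. It was 16.4 and 15.3 TPM in parental cells, 30.5 and 28.3 for SAP30-KO1, 26.4 and 27.2 for SAP30-KO2, 21.3 and 23.0 for SIN3A/3B-DKO1, and 20.0 and 23.5 for SIN3A/3B-DKO2. In MLL1-KO1 it was 8.19 and 7.67 TPM and in MLL1-KO2 8.66 and 8.93 TPM. All 8 libraries were above parental cells and all 4 MLL1-KO libraries below, at a log2 fold change of 0.87, 0.74, 0.47, 0.44, -0.95, and -0.81 in the order of the lines. DAGLB, a lipase that makes the endocannabinoid 2-arachidonoylglycerol, was among the 3 largest in SIN3A/3B-DKO along the shift. Its levels were 32.6 and 32.4 TPM in parental cells, 47.6 to 50.3 TPM in SAP30-KO, 54.7 to 60.8 TPM in SIN3A/3B-DKO, and 27.7 to 32.4 TPM in MLL1-KO. The SIN3A/3B-DKO libraries were the highest, above every SAP30-KO library. DAGLB and KDELR2 overlap on the minus strand and share an annotated start, so their reads may not separate fully.

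SNX10, an endosomal sorting nexin, was the member with the lowest share of its parental level in MLL1-KO among those that were higher in the other lines. It was 3.69 and 3.74 TPM in parental cells, 6.64 and 6.84 for SAP30-KO1, 4.33 and 5.26 for SAP30-KO2, 5.12 and 4.46 for SIN3A/3B-DKO1, and 4.96 and 6.60 for SIN3A/3B-DKO2. It was 0.895 and 0.743 TPM in MLL1-KO1 and 0.441 and 0.462 TPM in MLL1-KO2. No MLL1-KO library came near the parental level, and the values rest on 9 to 22 reads there and on 80 and 79 reads in parental cells. The log2 fold change was -1.68 and -2.15 in the MLL1-KO lines and 0.32 to 0.78 in the others.

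The 10 members of translation, RNA processing, and the nuclear pore were above parental cells in 10, 10, 9, and 10 cases in the SAP30-KO and SIN3A/3B-DKO lines, with medians of 0.45, 0.38, 0.35, and 0.45. In MLL1-KO their medians were -0.10 and -0.23. The most abundant was HNRNPA2B1, a splicing and RNA transport protein, which was near its parental level in most lines. It was 1190 and 1205 TPM in parental cells, 1275 to 1324 TPM in SAP30-KO, 1143 to 1278 TPM in SIN3A/3B-DKO, and 974 to 1118 TPM in MLL1-KO. The 2 SIN3A/3B-DKO1 libraries were below both parental libraries and the 2 SIN3A/3B-DKO2 libraries above them, at log2 fold changes of -0.06 and 0.07.

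GARS, the glycyl-tRNA synthetase (current symbol GARS1), was higher in 4 lines and at the parental level in MLL1-KO. It was 334 TPM in both parental libraries, 456 and 474 for SAP30-KO1, 453 and 459 for SAP30-KO2, 526 and 557 for SIN3A/3B-DKO1, 493 and 467 for SIN3A/3B-DKO2, 338 and 358 for MLL1-KO1, and 335 and 340 for MLL1-KO2. All libraries lay above parental cells, MLL1-KO by a log2 fold change of only 0.06 and 0.01. NUPL2, a nucleoporin of the messenger RNA export platform whose promoter is shown above, was among the 3 largest in both SAP30-KO and SIN3A/3B-DKO along the shift. Its levels were 18.7 and 18.0 TPM in parental cells, 33.1 and 33.2 for SAP30-KO1, 30.1 and 30.3 for SAP30-KO2, 33.8 and 37.5 for SIN3A/3B-DKO1, and 31.7 and 37.3 for SIN3A/3B-DKO2. In MLL1-KO1 they were 24.6 and 23.3 TPM and in MLL1-KO2 26.2 and 22.6 TPM. NUPL2 was higher than parental cells in all 12 knockout libraries, at 0.83, 0.70, 0.94, 0.89, 0.37, and 0.40 on the log2 scale, and was thus the member that went furthest against the downward shift in MLL1-KO1.

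Of the 10 members of transcription and chromatin, 8, 9, 9, and 6 were above parental cells in the SAP30-KO and SIN3A/3B-DKO lines, with medians of 0.45, 0.31, 0.18, and 0.44, and 1 and 3 were in MLL1-KO1 and MLL1-KO2, with medians of -0.39 and -0.46. CBX3, heterochromatin protein 1 gamma, starts beside HNRNPA2B1 on the other strand and followed the shift in all lines. It was 236 TPM in both parental libraries, 305 to 334 TPM in SAP30-KO, 268 to 344 TPM in SIN3A/3B-DKO, and 158 to 180 TPM in MLL1-KO, without overlap. In the annotation CBX3 overlaps HNRNPA2B1 on the opposite strand and has 10 pseudogene copies, and whether reads were counted by strand is not given in the sources used here, so the split between both genes is uncertain. CREB5, a CREB family transcription factor, was among the 3 largest in SIN3A/3B-DKO along the shift. It was 3.26 and 2.74 TPM in parental cells, 4.28 to 4.82 TPM in SAP30-KO, 4.48 and 4.77 for SIN3A/3B-DKO1, 6.05 and 7.25 for SIN3A/3B-DKO2, 2.61 and 2.22 for MLL1-KO1, and 2.90 and 3.47 for MLL1-KO2.

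NFE2L3, a cap-n-collar transcription factor related to NRF2, was low in MLL1-KO and near the parental level elsewhere. It was 178 and 170 TPM in parental cells, 181 and 188 for SAP30-KO1, 150 and 156 for SAP30-KO2, 162 and 165 for SIN3A/3B-DKO1, and 158 and 188 for SIN3A/3B-DKO2. It was 61.6 and 63.2 TPM in MLL1-KO1 and 48.1 and 47.8 TPM in MLL1-KO2. The MLL1-KO libraries were far below all others, at -1.47 and -1.85, whereas the other lines lay between -0.19 and 0.09. NFE2L3 overlaps HNRNPA2B1 on the opposite strand.

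Among 6 tested members of the cytoskeleton, GTPases, and adhesion signalling, ACTB was by far the most abundant and RAC1 the next. ACTB, beta-actin, was 10261 and 9967 TPM in parental cells, 9878 to 10989 TPM in SAP30-KO and SIN3A/3B-DKO, and 8350 to 9068 TPM in MLL1-KO. Its 8 SAP30-KO and SIN3A/3B-DKO libraries overlapped with parental cells, at log2 fold changes from 0.01 to 0.10, and the MLL1-KO lines lay at -0.16 and -0.25. RAC1, a small GTPase of membrane ruffling and migration, was 380 and 378 TPM in parental cells, 482 to 497 TPM in SAP30-KO, 418 to 472 TPM in SIN3A/3B-DKO, and 286 to 311 TPM in MLL1-KO, with no overlap. ACTB has 12 and RAC1 has 9 annotated pseudogene copies, which may share reads with them. SKAP2, an adaptor of integrin signalling, was 44.3 and 43.1 TPM in parental cells, 52.7 to 68.7 TPM in the 8 libraries, and 41.6 to 47.7 TPM in MLL1-KO, where it overlapped with parental cells.

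The 5 members for ubiquitin ligases and proteases and the 5 for mitochondria and small-molecule metabolism were above parental cells in every one of the first 4 lines. KBTBD2, a cullin 3 adaptor, was 52.7 and 53.2 TPM in parental cells, 58.3 to 69.8 TPM in the 8 libraries, and 48.3 to 48.9 TPM in MLL1-KO. RNF216, a RING-between-RING ubiquitin ligase, was 30.8 and 28.6 TPM in parental cells, 39.8 to 45.4 TPM in the 8 libraries, and 23.9 to 27.4 TPM in MLL1-KO. Both were therefore separated in each direction. TOMM7, a small subunit of the mitochondrial import pore, was 129 and 119 TPM in parental cells and 158 to 187 TPM in the 8 libraries, but its MLL1-KO libraries, at 115 to 128 TPM, overlapped with parental cells. HIBADH, a valine catabolism enzyme, was 89.1 and 84.7 TPM in parental cells, 110 to 132 TPM in the 8 libraries, and 63.0 to 74.3 TPM in MLL1-KO.

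The 3 remaining members, of the spindle checkpoint, cell death, and lysosome, were above parental cells in the first 4 lines. DFNA5, gasdermin E (current symbol GSDME), was 44.3 and 45.2 TPM in parental cells and 69.5 to 78.3 TPM in the 8 libraries. It was 31.8 and 34.1 TPM in MLL1-KO1 but 47.5 and 46.5 TPM in MLL1-KO2, so the 2 MLL1-KO lines lay on opposite sides of parental cells. MAD1L1, a spindle checkpoint protein, was 41.0 TPM in both parental libraries, 46.4 to 54.6 TPM in the 8 libraries, 39.7 and 38.5 for MLL1-KO1, and 42.9 and 44.9 for MLL1-KO2. GPNMB, a lysosomal and melanosomal glycoprotein, had only 5 and 3 reads in parental cells, 16 to 29 in SAP30-KO, 6 and 7 for SIN3A/3B-DKO1, 20 and 17 for SIN3A/3B-DKO2, and 1 to 4 in MLL1-KO, and its changes depend on the pseudocount.

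Of the 3 glycosyltransferase and sulfotransferase members, 2 followed the shift. C1GALT1, which makes the core 1 O-glycan, was 22.9 and 20.7 TPM in parental cells, 24.6 to 31.6 TPM in the 8 libraries, and 14.3 to 16.0 TPM in MLL1-KO, with no overlap. CHST12, a chondroitin sulfotransferase, was 19.5 and 20.0 TPM in parental cells and 22.2 to 26.9 TPM in the 8 libraries. It was 12.1 and 14.5 TPM in MLL1-KO1 but 19.6 and 18.2 TPM in MLL1-KO2, where 1 library overlapped with parental cells. The third, LFNG, departed.

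Only 9 members departed from the shift in both lines of a genotype. In SAP30-KO these were 3, LFNG, ICA1, and TSPAN13. In SIN3A/3B-DKO they were 5, the same 3 with RAPGEF5 and NFE2L3. In MLL1-KO they were 4, TTYH3, NUPL2, SKAP2, and GARS. Departure was judged by sign alone, and some of these values lay near 0. SKAP2 was at 0.03 and 0.004 in MLL1-KO (standard error 0.07). NFE2L3 was at -0.09 and -0.01 in SIN3A/3B-DKO (standard error 0.06). The remaining 14 of the 23 members that departed did so in 1 line of a genotype only. Their departing values lay within 0.25 of 0 on the log2 scale, except JAZF1, at 0.32 for MLL1-KO2.

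TSPAN13, a tetraspanin of the cell surface, departed the most. It was 14.3 and 14.6 TPM in parental cells, 8.33 and 7.93 for SAP30-KO1, 6.61 and 7.70 for SAP30-KO2, 2.72 and 3.05 for SIN3A/3B-DKO1, 4.31 and 3.95 for SIN3A/3B-DKO2, 1.74 and 2.36 for MLL1-KO1, and 1.71 and 1.61 for MLL1-KO2. Every knockout library was below parental cells and the genotypes did not overlap, with SAP30-KO the highest of the 3 and MLL1-KO the lowest. The log2 fold changes were -0.79, -0.97, -2.14, -1.69, -2.56, and -2.79, on 195 and 194 reads in parental cells and 22 to 36 in MLL1-KO. The gene lies on the plus strand of chromosome 7, from 16793380 to 16824161 (GRCh37), between members BZW2 and AHR, which followed the shift.

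LFNG, the lunatic fringe glycosyltransferase that modifies Notch receptors, was 23.8 and 24.0 TPM in parental cells, 16.4 and 16.1 for SAP30-KO1, 17.3 and 17.7 for SAP30-KO2, 8.96 and 6.38 for SIN3A/3B-DKO1, 9.86 and 10.0 for SIN3A/3B-DKO2, 9.56 and 7.70 for MLL1-KO1, and 10.5 and 11.8 for MLL1-KO2. All 12 knockout libraries were below parental cells, and here SIN3A/3B-DKO and MLL1-KO overlapped, with SAP30-KO between them and parental cells. The log2 fold changes ran from -0.44 and -0.54 in SAP30-KO to -1.60 for SIN3A/3B-DKO1. ICA1, islet cell autoantigen 1 of secretory vesicles, did not share the upward shift and was low in MLL1-KO. It was 14.5 and 15.4 TPM in parental cells, 12.6 to 15.4 TPM in the 8 libraries, which overlapped with them, and 6.58 to 8.97 TPM in MLL1-KO.

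RAPGEF5, a guanine nucleotide exchange factor for Rap GTPases, was near 1 TPM and split SAP30-KO from SIN3A/3B-DKO. It was 1.49 and 1.25 TPM in parental cells, 1.51 and 1.58 for SAP30-KO1, 1.46 and 1.44 for SAP30-KO2, 1.01 and 0.690 for SIN3A/3B-DKO1, 0.377 and 0.806 for SIN3A/3B-DKO2, 0.685 and 0.827 for MLL1-KO1, and 0.602 and 0.631 for MLL1-KO2. The SIN3A/3B-DKO and MLL1-KO libraries were all below both parental libraries, on 21 to 57 reads. TTYH3, a tweety family membrane protein, was above parental cells in all lines. It was 75.4 and 73.6 TPM in parental cells, 118 and 111 for SAP30-KO1, 126 and 130 for SAP30-KO2, 92.6 and 90.8 for SIN3A/3B-DKO1, 85.2 and 85.7 for SIN3A/3B-DKO2, 83.4 and 80.7 for MLL1-KO1, and 128 and 129 for MLL1-KO2. MLL1-KO2 was at the level of SAP30-KO2 and MLL1-KO1 at that of SIN3A/3B-DKO2.

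**Figure D3:**
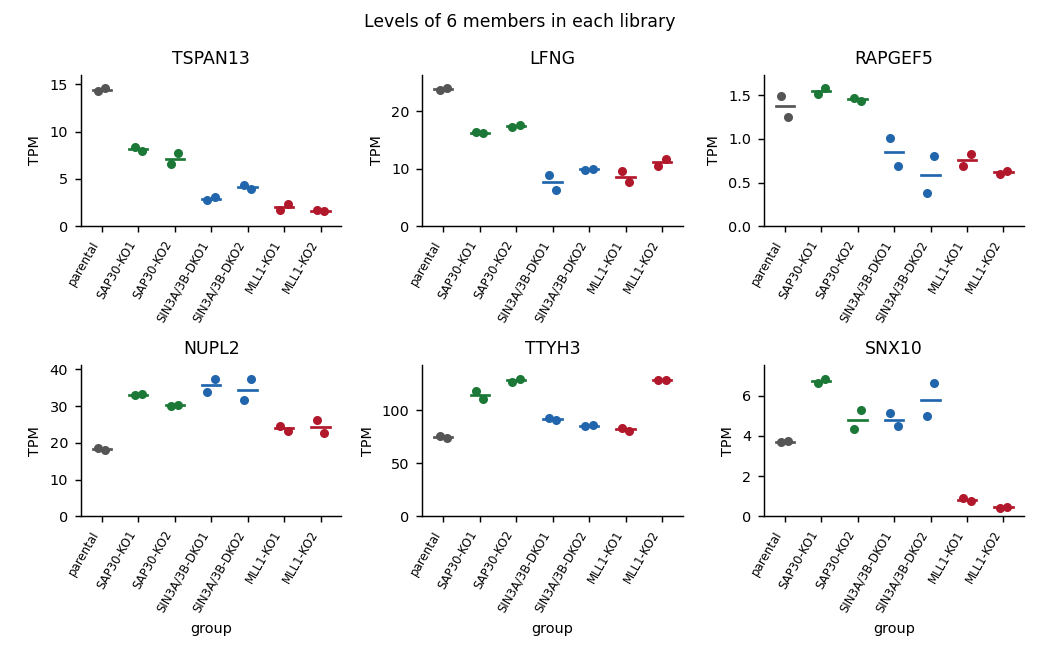
TPM (y axis, from 0) of TSPAN13, LFNG, RAPGEF5, NUPL2, TTYH3, and SNX10 in each library, with 2 dots per group and a line at their mean. TSPAN13 and LFNG are below parental cells in all 6 lines, NUPL2 and TTYH3 above in all 6, and SNX10 is at 3.69 and 3.74 TPM in parental cells and at 0.441 to 0.895 TPM in the MLL1-KO libraries.

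The 2 lines of a genotype were compared directly. The choice of the members did not use this contrast itself, but it was made where the lines of a genotype shift the same way. Few differences between lines are therefore partly built in. Between SAP30-KO1 and SAP30-KO2, limma called (adjusted p under 0.05 after Benjamini-Hochberg, at least 1.5-fold) 0 of 56 members (0.148% of all genes tested), 10 had an unadjusted p under 0.05, and 0 passed the adjusted p at any fold (0.236% of all genes higher and 0.288% lower). The median difference was 0.03 and the members ranged from -0.21 to 0.47. Between SIN3A/3B-DKO1 and SIN3A/3B-DKO2, 1 member was called (2.23% of all genes), GPNMB, with a log2 difference of -0.73 (standard error 0.19, adjusted p = 0.0323 from limma), which rests on 6 and 7 against 20 and 17 reads. GPNMB was no longer called, at -0.67 to -0.79, without either replicate of SIN3A/3B-DKO1 or of SIN3A/3B-DKO2, and at -0.49 with a pseudocount of 1. At any fold, 2 members were higher in SIN3A/3B-DKO1 (6.71% of all genes) and 6 lower (5.8%). TSPAN13 was among the lower ones, with a difference of -0.45 (standard error 0.12, adjusted p = 0.0398).

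Between the MLL1-KO lines, TTYH3 was the 1 member called (10.4% of all genes tested), with a log2 difference of -0.64 between MLL1-KO1 and MLL1-KO2 (standard error 0.04, adjusted p = 3.22e-07 from limma). With the trend on GC content and length removed, the TTYH3 difference was -0.51, and with the median of all genes subtracted -0.56, both short of 1.5-fold. At any fold, 14 members were higher in MLL1-KO1 (15.9% of all genes) and 14 lower (26.2%). Those higher in MLL1-KO1 include SNX10 (0.47, standard error 0.14, adjusted p = 0.0226), NFE2L3 (0.38, standard error 0.06, adjusted p = 0.000766), and AHR, the aryl hydrocarbon receptor (0.35, standard error 0.05, adjusted p = 0.000147). JAZF1, a zinc finger gene (-0.53), DFNA5 (-0.51), and CHST12 (-0.50) were lower in MLL1-KO1, with adjusted p values of 0.00197, 1.8e-05, and 0.000645. The median difference between the 2 lines over the members was 0.03, against -0.05 over all genes.

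SAP30-KO and SIN3A/3B-DKO were also compared with each other, as the mean of 2 lines minus the mean of the other 2. This contrast was added after the values were seen, and the members had been chosen for a shift that both genotypes share. Its p values rest on the spread between the replicates of a line and do not measure the spread between lines. The median difference was 0.04 and 4 members were called higher in SAP30-KO (4.22% of all genes tested). None was called lower (3.25%), and at any fold 22 were higher (26.4%) and 10 lower (22.2%), with 37 at an unadjusted p under 0.05. The 4 members called were TSPAN13 with a log2 difference of 1.04 (standard error 0.09, adjusted p = 3.77e-06), LFNG with 0.92 (standard error 0.10, adjusted p = 1.68e-05), RAPGEF5 with 0.74 (standard error 0.14, adjusted p = 0.00159), and GPNMB with 0.60 (standard error 0.14, adjusted p = 0.00363). For TSPAN13, LFNG, and RAPGEF5 all 4 SAP30-KO libraries were above all 4 SIN3A/3B-DKO libraries, and for GPNMB they overlapped. GPNMB reached 1 TPM only in the 2 SAP30-KO1 libraries (1.46 and 1.17 TPM). It thus passed the filter only through a group where it was high, so its call here is partly built in and is no support for a difference. Leaving out SAP30-KO1 replicate 1, SAP30-KO2 replicate 2, SIN3A/3B-DKO1 replicate 1, or SIN3A/3B-DKO2 replicate 2 moved GPNMB below 1.5-fold, to between 0.54 and 0.58, and a pseudocount of 1 moved RAPGEF5 to 0.55.

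Smaller differences passed this test, which does not measure the spread between lines, in either direction. TTYH3 (0.45, adjusted p = 2.19e-07), IGF2BP3, an RNA-binding protein of fetal tissue (0.35, adjusted p = 6.01e-05), TMEM106B (0.35, adjusted p = 0.000533), and RAC1 (0.17, adjusted p = 0.0019) were higher in SAP30-KO. OSBPL3, an oxysterol-binding protein family member (-0.29, adjusted p = 9.91e-06), DAGLB (-0.23, adjusted p = 0.00135), GARS (-0.15, adjusted p = 0.00132), and EIF3B, a subunit of translation initiation factor 3 (-0.12, adjusted p = 0.000231), were higher in SIN3A/3B-DKO. EIF3B overlaps SNX8 on the opposite strand. GARS also differed by 0.17 between SIN3A/3B-DKO1 and SIN3A/3B-DKO2 themselves. For ACTB the difference was -0.02 and for TOMM7 -0.04, with standard errors of 0.03 and 0.05.

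**Figure D4:**
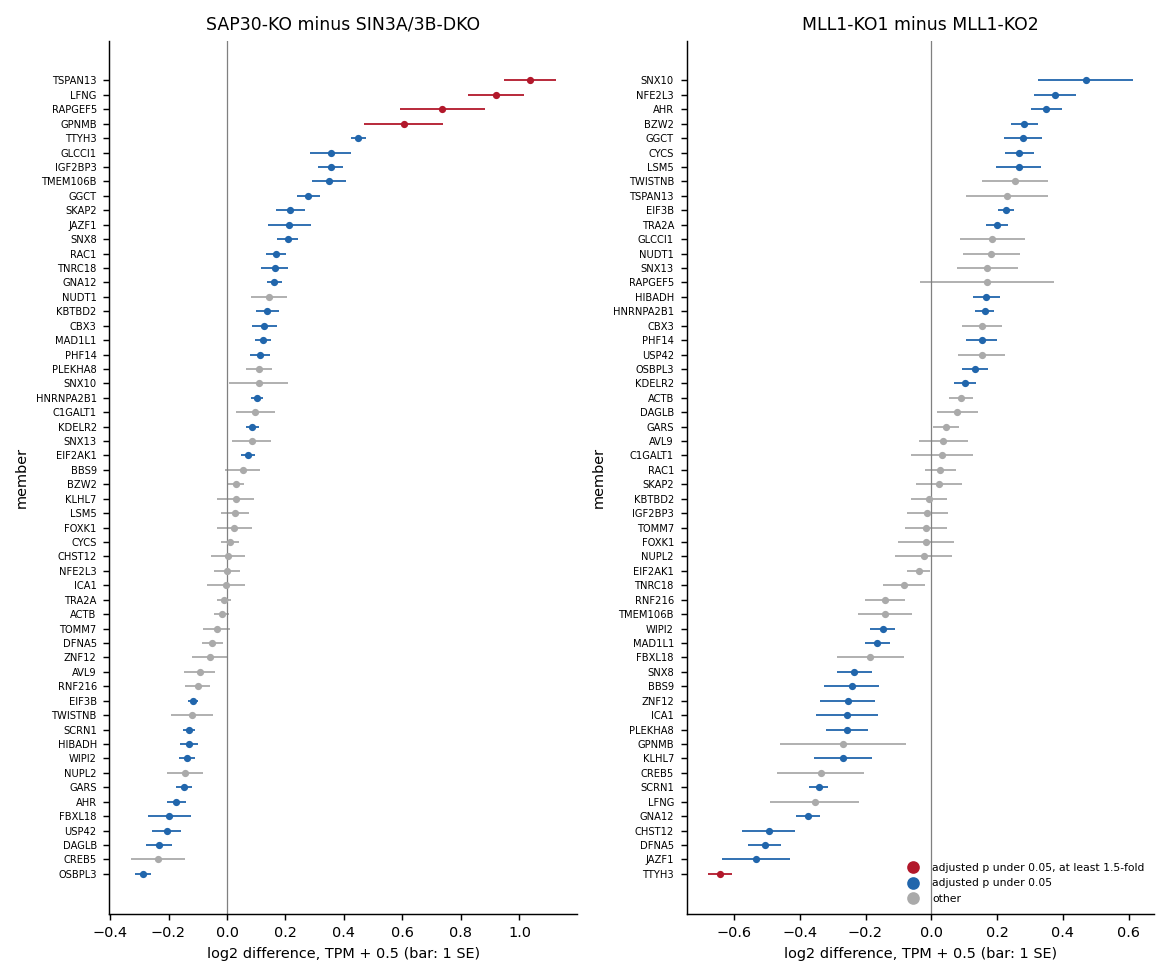
Log2 difference (x axis, dot, with 1 standard error as a bar) of each of the 56 members (y axis) between the mean of the SAP30-KO and the mean of the SIN3A/3B-DKO lines (left) and between MLL1-KO1 and MLL1-KO2 (right), coloured by the limma test. The 4 members called on the left are TSPAN13, LFNG, RAPGEF5, and GPNMB, and the 1 on the right is TTYH3.

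The members were set beside the other tested genes of the chromosome. Up to 40 Mb there were 100 other tested genes, and their median changes were 0.35, 0.32, 0.33, and 0.26 in the lines of SAP30-KO and SIN3A/3B-DKO and -0.26 and -0.29 in the MLL1-KO lines. Of these 100, 77 to 83 were above parental cells in the first 4 lines, where 50% to 54.3% of all genes tested were. In MLL1-KO1 and MLL1-KO2, 22 and 28 were above, against 40.4% and 45.7% of all genes. The region was chosen for this shift, so these genes are no outside comparison. From 40 Mb to the centromere, 57 tested genes had medians of 0.02, 0.02, 0.09, and 0.10 in the first 4 lines. In the MLL1-KO lines their medians were -0.25 and -0.23, which pool stretches that were lower and stretches that were higher than parental cells. Along the long arm, 404 genes had medians between 0.03 and 0.05 in the first 4 lines and of -0.08 and -0.04 in MLL1-KO, close to the medians of all genes.

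The medians along the arm are given in stretches of 5 Mb. In the 7 stretches that hold members, the medians of all tested genes were 0.25 to 0.54 in the first 4 lines. In the stretch from 35 to 40 Mb, with 13 tested genes and 0 members, they were 0.16, 0.13, 0.10, and 0.11, whereas those of MLL1-KO1 and MLL1-KO2 were -0.56 and -0.49. From 40 to 45 Mb they were 0.04 to 0.06 in the first 4 lines and -0.51 in both MLL1-KO lines, over 29 genes. From 45 to 50 Mb the MLL1-KO medians were 0 and 0.12. They were above 0 in the next stretches, at 0.69 and 0.62 from 50 to 55 Mb (3 genes) and 0.33 and 0.31 from 55 to 60 Mb (12 genes). The last members before the 40 Mb limit were KBTBD2 and BBS9, a subunit of the ciliary BBSome. BBS9 was at 0.52, 0.45, 0.45, 0.42, -0.37, and -0.13 in the order of the lines, and the next tested genes outside the members were BMPER, at 0.11, 0.19, 0.28, 0.30, -1.32, and -1.62, and DPY19L1, at 0.30, 0.31, 0.16, 0.28, -0.30, and -0.24. Over the 430 stretches of 5 Mb in the genome with at least 10 tested genes, 25 had medians above 0.2 in all of the first 4 lines, 5 of them on chromosome 7, and 88 had medians below -0.2 in both MLL1-KO lines. Both held for 2 stretches, from 5 to 10 Mb and from 30 to 35 Mb of chromosome 7. This region was chosen for that pattern, so the count describes the choice. It also depends on the limit of 0.2. Medians from 50 to 55 Mb of chromosome 17 were 0.24, 0.19, 0.23, 0.31, -0.31, and -0.47 in the order of the lines. From 15 to 20 Mb of chromosome 6 they were 0.21, 0.17, 0.28, 0.2, -0.61, and -0.48. SAP30-KO2 fell short of the limit in both. Upward medians alone were larger elsewhere. From 105 to 110 Mb of chromosome X they were 0.86, 0.83, 0.76, and 0.79 in the first 4 lines, with 0.58 and 0.54 in the MLL1-KO lines.

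**Figure D5:**
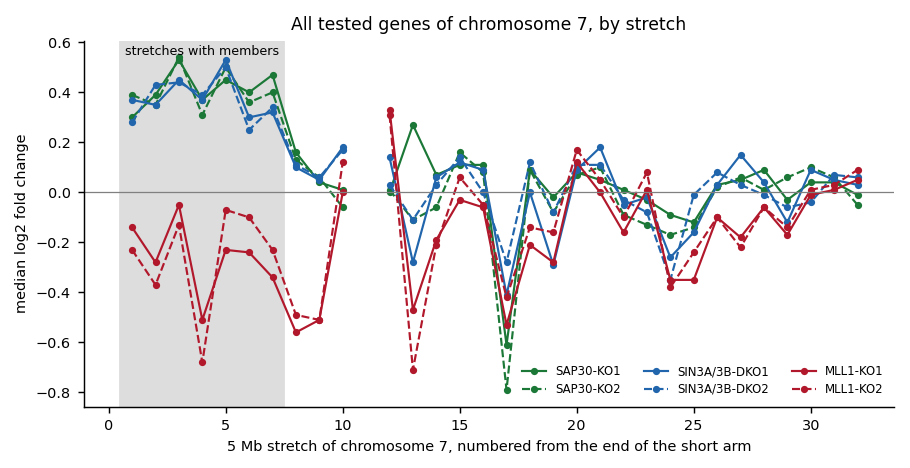
Median log2 fold change (y axis) of all tested genes in each 5 Mb stretch of chromosome 7 with at least 5 of them (x axis, numbered from the end of the short arm), for each line. The shaded 7 stretches hold the members. The 4 SAP30-KO and SIN3A/3B-DKO lines lie at 0.25 to 0.54 there and at 0.10 to 0.16 in the next stretch, and the MLL1-KO lines lie near -0.5 in the next 2 stretches.

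Position and sequence features of the members were set beside their changes. The 23 members that start before 10 Mb had medians of 0.38, 0.37, 0.31, and 0.28 in the first 4 lines and the 33 others 0.48, 0.40, 0.41, and 0.44, with a median transcript GC content of 54.4% and 41.6%. In MLL1-KO the medians were -0.32 and -0.30 before 10 Mb and -0.33 and -0.26 after it. Across the 56 members, which share libraries and are not independent, Spearman's rank correlation between the change and GC content ran from -0.34 in SAP30-KO1 to 0.21 for MLL1-KO2. With mean TPM it was 0.41 for MLL1-KO1, where abundant members were less reduced. It was 0.11 for MLL1-KO2 and between -0.21 and 0.05 in the other lines. With transcript length it was -0.36 for MLL1-KO1 and between -0.05 and 0.17 in the other lines. With start position it was at most 0.26, in SIN3A/3B-DKO2. Of the 57 members, 32 overlap an annotated gene on the opposite strand and 11 have pseudogene copies, and 21 have neither. The median change of those 21 was 0.44 for SAP30-KO1, 0.42 for SAP30-KO2, 0.37 for SIN3A/3B-DKO1, 0.44 for SIN3A/3B-DKO2, -0.28 for MLL1-KO1, and -0.20 for MLL1-KO2, all in the direction of all 56.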

How the data were processed

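RNA-Seq was performed by the authors on 14 libraries (KAPA mRNA HyperPrep, NextSeq 500), and the processing notes name FastQC 0.11.2, TopHat, featureCounts, and hg19. The authors deposited 1 value per gene and library. They named the values RPKM, but each library adds up to 1000000, so the deposited values were used as TPM, which hide differences in total RNA. Whole reads were recovered from the value steps for all 18519 genes above 0 (within 0.05 reads). Depth limits members with few reads.

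The members and lists were chosen with earlier results of these data known. The test design had been written for RPKM, and the same log-scale test was used. The 13540 genes with TPM of at least 1 in at least 2 libraries were fitted as log2(TPM + 0.5) with limma 3.58.1 in R 4.3.3 (trend on the mean, 7 group means, 7 residual and 3.6 prior degrees of freedom). Calls needed a Benjamini-Hochberg adjusted p under 0.05 and a 1.5-fold change. For contrasts with parental cells, which chose the members, only changes of at least 1.5-fold were counted, with no test, a choice made after the values were seen. The script was tested on simulated data. SAP30-KO minus SIN3A/3B-DKO was added after the values were seen.

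Named by rule were the 2 most abundant members of each role list, the 3 largest changes along the shift per genotype, members departing in both lines of a genotype, up to 5 called between lines, and the 2 on each side of the end of the member list. Other members named were chosen after their values were seen. Departing means a mean change below 0 in SAP30-KO or SIN3A/3B-DKO, or above 0 in MLL1-KO.

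Alternatives were pseudocounts of 0.1 and 1, quantile and median-ratio scaling, a GC and length trend (lowess span 0.3), no filter, only the 4 libraries compared, a replicate block, voom on recovered reads, fold minimums of 2 and none, and leaving out each library. Added later were the median of all genes subtracted and only members without overlaps or copies. Positions are GRCh37 (GENCODE 44), where 53 members matched by symbol and 4 by older symbol. RefSeq promoters are GRCh38.p14. Python 3.11.15, pandas 2.3.3, and matplotlib 3.10.9 were used. ChIP-Seq was not analysed here.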

Additional observations from a re-analysis of the deposited data

Results flagged for a closer look

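Differences between groups under the same contrast, each from the limma fit, were found for 5 members. TTYH3 was lower in MLL1-KO1 than in MLL1-KO2 by a log2 difference of -0.64, in both libraries of each line. GPNMB was lower in SIN3A/3B-DKO1 than in SIN3A/3B-DKO2, at -0.73, on 6 and 7 against 20 and 17 reads. Between SAP30-KO and SIN3A/3B-DKO, a contrast added after the values were seen, the differences were 1.04 for TSPAN13, 0.92 for LFNG, 0.74 for RAPGEF5, and 0.60 for GPNMB. For the first 3 of these, all libraries of the 2 SAP30-KO lines lay above all those of the 2 SIN3A/3B-DKO lines. The test does not measure the spread between lines. GPNMB passed the filter only through the SAP30-KO1 libraries, so its difference between SAP30-KO and SIN3A/3B-DKO is partly built in.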

How the results depend on the processing

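No median of the members and no difference of a member that was called or at least 1.5-fold turned its direction under any alternative run, and leaving out the filter changed no member's side of the threshold. The replicate numbers did not pair the samples: the correlation of same-numbered deviations was 0.01 on average over 21 pairs of groups (-0.07 to 0.08). A fit with the replicate block gave medians of 0.44 for SAP30-KO1 and -0.33 for MLL1-KO1 and changed no call. The cause of the changes below was not tested.

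With the GC and length trend removed, the medians were 0.39 (SAP30-KO1), 0.36 (SAP30-KO2), 0.39 (SIN3A/3B-DKO1), and -0.17 (MLL1-KO1), with 9 members at least 1.5-fold higher and 2 lower for SAP30-KO1, 0 called between the MLL1-KO lines, and 8 departing in both MLL1-KO lines. Median-ratio scaling gave 0.40 (SAP30-KO1), 0.36 (SAP30-KO2), 0.39 (SIN3A/3B-DKO2), and -0.23 and -0.22 in the MLL1-KO lines, with 8 at least 1.5-fold higher for SAP30-KO1 and 8 departing in MLL1-KO. Quantile normalization gave 0.38 (SIN3A/3B-DKO1) and -0.21 and -0.18 in the MLL1-KO lines, with 2 at least 1.5-fold higher for MLL1-KO2 and 12 departing in MLL1-KO. Subtracting the median of all genes gave -0.16 and -0.19 for the MLL1-KO lines, 0 called between them, and 9 departing. With voom on recovered reads the medians were 0.40 and 0.44 (SIN3A/3B-DKO) and -0.27 and -0.23 (MLL1-KO), with 11 at least 1.5-fold higher for SIN3A/3B-DKO1 and 7 departing in MLL1-KO. The 21 members without overlaps or copies gave 0.44 (SAP30-KO1), 0.42 (SAP30-KO2), 0.37 and 0.44 (SIN3A/3B-DKO), and -0.28 and -0.20 (MLL1-KO).

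A fold minimum of 2 left 1, 0, 0, and 1 members higher in the SAP30-KO and SIN3A/3B-DKO lines, 0 lower in either SAP30-KO line, 5 lower in each MLL1-KO line, 0 higher for MLL1-KO2, 0 called between lines of SIN3A/3B-DKO or MLL1-KO, and 1 higher in SAP30-KO than in SIN3A/3B-DKO. With no fold minimum, 8 and 28 members were called between lines of SIN3A/3B-DKO and MLL1-KO, and 22 were higher and 10 lower in SAP30-KO than in SIN3A/3B-DKO. A pseudocount of 0.1 gave 2 called between the MLL1-KO lines, and a pseudocount of 1 gave 0 between the SIN3A/3B-DKO lines and 2 higher in SAP30-KO than in SIN3A/3B-DKO. Only the 4 libraries compared gave 0 between the SIN3A/3B-DKO lines.

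Leaving out 1 library at a time, with a lone sample assumed to vary like the other groups, gave medians of 0.40 to 0.46 (SAP30-KO1), 0.38 to 0.44 (SIN3A/3B-DKO2), and -0.35 to -0.29 (MLL1-KO1). It gave 5 to 11 members at least 1.5-fold higher for SIN3A/3B-DKO1, 0 to 1 called between the SIN3A/3B-DKO lines, and 1 to 2 between the MLL1-KO lines. Of the member results, 7768 kept their side of the threshold, 38 passed it newly, and 34 no longer did. Both parental libraries serve all comparisons with parental cells, and depth limits GPNMB, RAPGEF5, and SNX10.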

Other observations

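AGR2, a protein disulfide isomerase of the secretory pathway and no member (chr7:16831435-16873057, GRCh37, minus strand), is the next gene after TSPAN13 and was added after its values were seen. It had 1135 and 1202 recovered reads in parental cells, 124 and 151 for SAP30-KO1, 144 and 118 for SAP30-KO2, 230 and 272 for SIN3A/3B-DKO1, 238 and 108 for SIN3A/3B-DKO2, and 0 in each MLL1-KO library. TSPAN13 and AGR2 were thus both below parental cells in all 12 knockout libraries, but SAP30-KO lay above SIN3A/3B-DKO for TSPAN13, whereas the 2 genotypes overlapped for AGR2. The microRNA gene MIR4648 lies on the same strand inside LFNG (2566708 to 2566779, GRCh37). It had 48 and 51 reads in parental cells and 13 to 44 in the knockout lines. Whether these reads were also counted for LFNG is not given in the sources used here.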
